A study of Mus musculus with 36 samples.

Results

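The reciprocal F1 crosses were the 6 B6C3F1 mice and the 6 C3B6F1 mice of the series, 12 of its 36 samples, and the members were taken by these names in the sample labels. B6C3F1 animals had a C57BL/6N (B6) dam and a C3H/HeN (C3) sire, and C3B6F1 animals had a C3 dam and a B6 sire. Each cross held 3 sons and 3 daughters from 3 families, sampled at 20 weeks of age without a treatment in the labels, and the daughters were virgins. Methylation in liver DNA came from bisulfite sequencing of the whole genome, in which unmethylated cytosines are converted and methylated cytosines are not, and 12 parents (3 sires and 3 dams of each strain) were measured in the same way.

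Both crosses carry 1 B6 and 1 C3 copy of every autosome, so the comparison asks where methylation depends on which parent gave which copy. Genomic imprinting is the known case: a germline differentially methylated region keeps methylation on the copy from one parent only, and the genes near it are expressed from a single copy. Most such regions are methylated on the maternal copy, among them those of Mcts2, Snrpn and Peg3, and a few on the paternal copy, such as H19 and Rasgrf1. Other imprinted regions, among them that of Zdbf2 on the paternal copy, gain their methylation after fertilization. When reads of both copies are counted alike, an imprinted region has about equal methylated and unmethylated reads in both crosses, and exchanging the parents leaves the sum unchanged. The crosses also differ in the strain of the dam that carried and nursed the pups and in mitochondria, which cannot be told apart from the parental origin of the autosomes here. Sons of the crosses differ in the X and Y chromosomes as well, whereas daughters of both crosses have an X of each strain.

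The methylated and unmethylated counts on autosomes summed to between 368500712 and 619888157 per F1 animal, or 19.5 to 32.8 reads per CpG. Methylation over all autosomal CpGs was 76.5% ± 0.383 (SD, n = 6) in B6C3F1 and 76.8% ± 0.452 in C3B6F1, with ranges of 75.9 to 76.9% and 76.3 to 77.5% that overlapped. C3B6F1 son 1 stood apart. Its depth on chromosome X relative to autosomes was 0.600, while the other sons lay between 0.492 and 0.521 and the daughters between 0.897 and 0.963. At 13 CpGs of chromosome X with no read in the C3 parents and at least 60 reads over the B6 parents, this son had 40 reads. C3B6F1 sons 2 and 3 had 1 and 2 reads there, and the daughters of the cross 144 to 179. A C3B6F1 son has its X from a C3 dam, so the library of son 1 held reads of a B6 X chromosome. Where they came from, and their part in the autosomal values of C3B6F1, was not tested, and the 13 CpGs were chosen after the data were seen. Counts without this animal are given beside those of windows, DMCs, DMRs and list regions. The CpGs within 1 kb of the starts of 22 genes that mark liver cell types were read as a check of cell makeup. The median over hepatocyte genes such as Alb and Apoa1 was 27.4% in B6C3F1 and 29.6% in C3B6F1, over leukocyte and Kupffer cell genes 84.3 and 83.8%, and over endothelial genes 70.6 and 69.8%. For 0 of these genes did the animals of the crosses fail to overlap, and Spi1 had no CpG in the table. The small differences leaned one way within each list. Methylation was lower in B6C3F1 at 7 of 8 hepatocyte genes, by up to 4.65 points at Alb, and higher in B6C3F1 at 5 of 7 leukocyte and 5 of 6 endothelial genes. Their part in the differences between the crosses was not tested.

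6 short regions differed between the crosses by the per-CpG test, and their sequences are shown because they are the regions where neighbouring CpGs passed it together. They are differentially methylated regions (DMRs): at least 5 CpGs over at least 50 bp, at least 75% of them differentially methylated CpGs (DMCs, p below 1e-05 in a beta-binomial Wald test), and crosses at least 20 percentage points apart in weighted methylation, the share of methylated counts among all counts of a region. Sequences are the mm9 plus strand, 5′ to 3′, from the first cytosine to the last guanine, and capitals mark the DMCs. In the Zdbf2, H13 and Trappc9 sequences, lower-case CGs include CpGs absent from the deposited counts, which were not tested.
Upstream of Zdbf2, chr1:63306229-63306496: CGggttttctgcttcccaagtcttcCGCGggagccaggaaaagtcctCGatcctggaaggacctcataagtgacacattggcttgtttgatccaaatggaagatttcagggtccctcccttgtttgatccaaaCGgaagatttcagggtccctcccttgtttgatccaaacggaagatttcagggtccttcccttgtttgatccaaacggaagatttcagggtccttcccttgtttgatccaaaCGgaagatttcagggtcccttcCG
Exon of Cdh20, chr1:106890533-106890672: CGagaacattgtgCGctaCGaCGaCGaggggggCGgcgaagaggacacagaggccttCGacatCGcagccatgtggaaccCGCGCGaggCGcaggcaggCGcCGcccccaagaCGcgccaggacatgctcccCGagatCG
Intron of H13 beside Mcts2, chr2:152512715-152512796: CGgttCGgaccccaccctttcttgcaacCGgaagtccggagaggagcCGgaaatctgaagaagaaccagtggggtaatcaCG
Intergenic, 352 kb from Snrpn, chr7:67636990-67637076: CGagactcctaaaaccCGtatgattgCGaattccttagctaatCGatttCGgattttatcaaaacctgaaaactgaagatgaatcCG
Intron of Trappc9, chr15:72640370-72640446: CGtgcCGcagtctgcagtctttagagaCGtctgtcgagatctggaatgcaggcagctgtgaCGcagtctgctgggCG
Intron of BC051142, chr17:34535872-34535939: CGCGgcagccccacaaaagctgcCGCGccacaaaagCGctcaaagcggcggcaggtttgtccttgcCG

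The Zdbf2 sequence is a tandem array, in which 73.6% of the bases equal the base 37 bp further on. The highest such share at any period tested was 34.9 to 45.1% in the other sequences. None of the 6 DMRs holds a single-nucleotide variant (SNV) of the deposited list of B6 and C3 bases. That list gives single bases only, and other sequence differences between the strains were not examined. The nearest deposited SNV lies 709 bp from the Zdbf2 DMR, 1600 bp from the Cdh20 DMR, 114 bp from the H13 DMR and 321 to 346 bp from the others. The letters TGCCGC, the core of the motif bound by ZFP57, a zinc finger protein that keeps methylation at imprinted regions, were searched on both strands. They occur 1 time in the Trappc9 sequence, 3 times in the BC051142 sequence and in none of the other four.

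Of the 6 DMRs, 3 had higher methylation in B6C3F1 and 3 in C3B6F1. They were chosen on the same 12 animals for a difference of at least 20 points, so that the lack of overlap between the crosses in all 6 only describes them. They arose from 135 DMCs among 18594132 CpGs tested (0.000726%), of which 60 were higher in B6C3F1 and 75 in C3B6F1. This is fewer than the limit of p below 1e-05 would pass if no CpG differed. Of these DMCs 46 lay in the DMRs. Without C3B6F1 son 1 the same rule gave 120 DMCs and 5 DMRs, 1 higher in B6C3F1 and 4 in C3B6F1. Of the 6 DMRs those at Zdbf2, Cdh20 and near Snrpn were among them, those in H13, Trappc9 and BC051142 were not, and 2 were other regions. With 1 animal left out at a time, the Zdbf2 and Cdh20 DMRs were called in all 12 tests, that near Snrpn in 11, that in Trappc9 in 9, that in H13 in 8 and that in BC051142 in 5. With at least 10 reads in every animal the Zdbf2, Cdh20 and BC051142 DMRs and 1 other region were called. With smoothing over 250 bp 4 of the 6 DMRs and 2 other regions were called, and those in H13 and Trappc9 were lost.

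**Figure D1:**
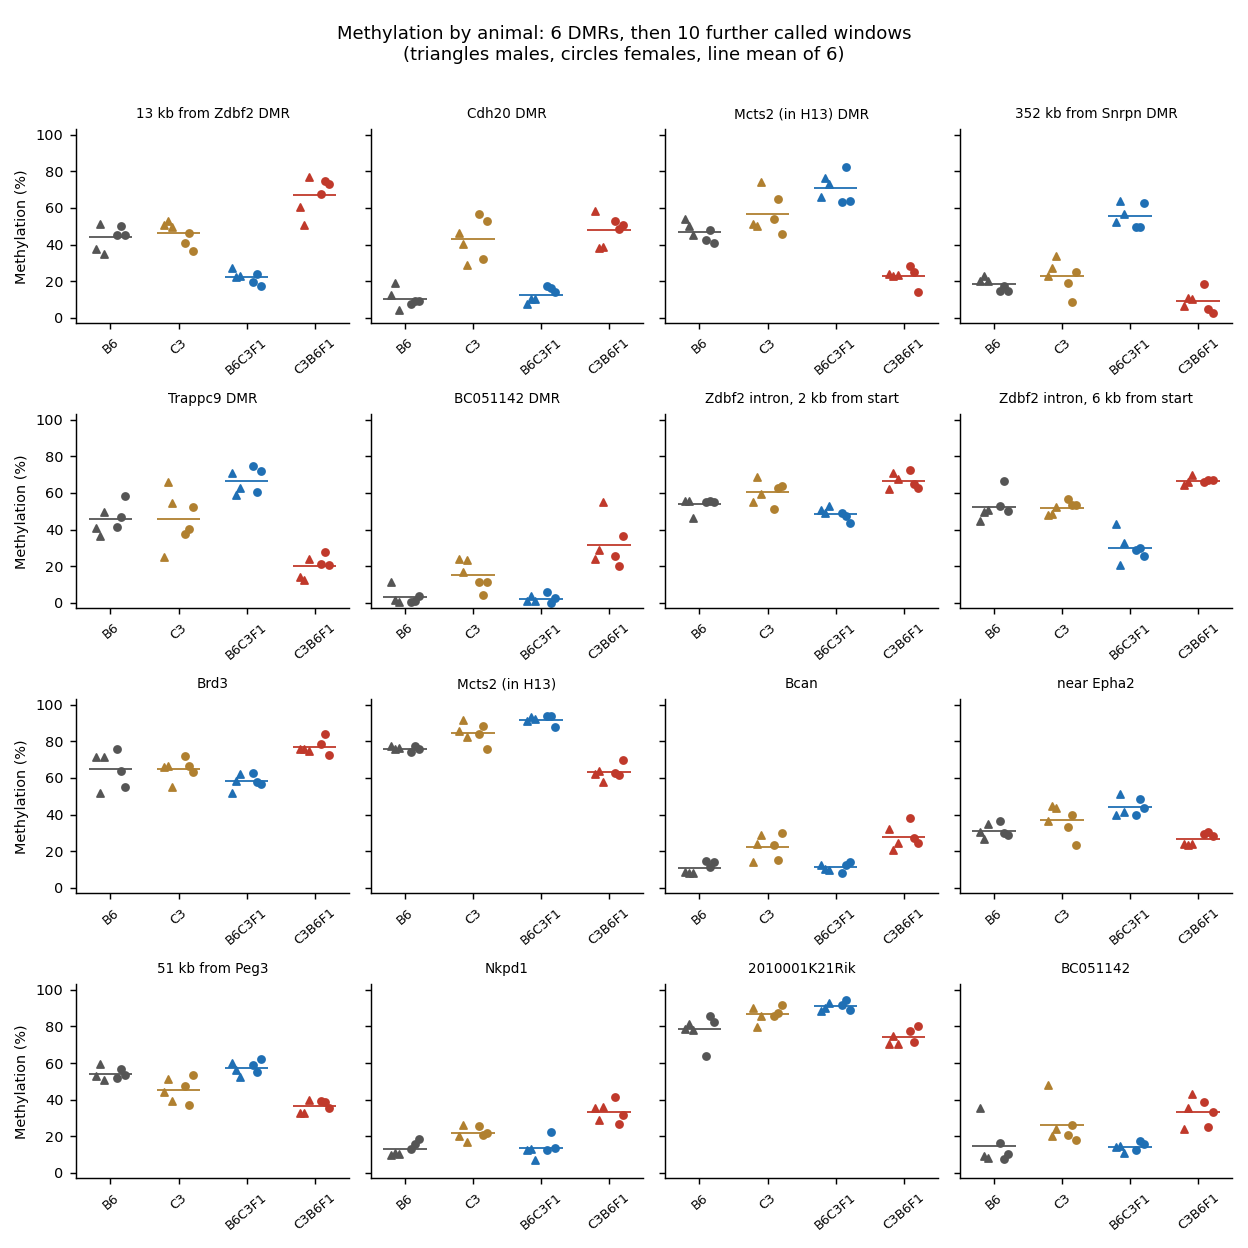
Weighted methylation (%) of each animal (triangles, males; circles, females; line, mean of 6) in the 6 DMRs and in the 10 further called windows of largest difference in which the crosses did not overlap. In every panel all B6C3F1 animals lie on one side of all C3B6F1 animals. In the Zdbf2, H13 and Trappc9 DMRs the strain means lie between those of the crosses, at 44.0 to 56.7%. Single C3 animals, and at Zdbf2 also the highest B6 animal, overlap with the crosses there.

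The DMR 13.3 kb upstream of Zdbf2, a gene expressed from the paternal copy, had methylation of 17.4% in the lowest, 22.6% in the median and 27.2% in the highest B6C3F1 animal. In C3B6F1 these values were 50.8, 70.3 and 77.1%. The means of the crosses lay on either side of those of the parents, 44.0% in B6 and 46.1% in C3. The highest parent of each strain, at 51.3% in B6 and 52.7% in C3, reached into the range of C3B6F1. The means were 22.2% ± 3.44 (SD, n = 6) and 67.2% ± 10.1, a difference of -45.0 points. It was -51.4 points in daughters and -38.6 points in sons. C3 reads were scarce at these 8 CpGs. The depth of the C3 parents relative to that of the B6 parents, each divided by its autosomal total, was 0.338, with 9.50 reads per CpG in C3 and 30.7 in B6.

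The DMR in H13, which encodes a signal peptide peptidase and hosts the imprinted retrogene Mcts2 in an intron, lies 89 bp from Mcts2. B6C3F1 animals had 63.0, 69.5 and 82.2% methylation (lowest, median and highest). C3B6F1 animals had 14.1, 23.5 and 28.3%. The difference of 47.9 points again lay about the parents' means, 46.7% in B6 and 56.7% in C3 (45.8 to 74.1% in single C3 parents), and the depth ratio of C3 to B6 was 0.372. At the CpG of largest difference around it, 305 bp from the DMR centre, methylation was 98.6% over 140 reads in B6C3F1 and 18.5% over 108 reads in C3B6F1. The 6 B6 parents together had 220 reads there and the 6 C3 parents 1 read.

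The DMR in Trappc9, a subunit of a complex for vesicle transport, lies in a stretch of the genome known to host the imprinted RNA gene Peg13, which the annotation used here does not list. Methylation was 59.0, 66.7 and 74.7% in the lowest, median and highest B6C3F1 animal and 12.5, 20.8 and 28.0% in C3B6F1. The mean of B6 was 45.6% and that of C3 45.9%, with single C3 parents at 25.0 to 65.8% that overlapped with both crosses, and the depth ratio was 0.310. The difference was local. The central CpG had 89.0% in B6C3F1 and 6.33% in C3B6F1, whereas the means over 46 CpGs at 500 to 1500 bp from the DMR were 62.8 and 60.7%, with a depth ratio of 1.07 there.

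The intergenic DMR 352 kb from Snrpn, the imprinted gene of a splicing protein, had 49.5, 54.5 and 63.8% methylation in B6C3F1 and 2.94, 8.32 and 18.5% in C3B6F1. Here the parents were not intermediate, at 18.4% in B6 and 22.8% in C3, and the B6C3F1 animals lay above all 12 parents. The difference was 46.8 points, and the depth ratio was 0.354.

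In these 4 DMRs the depth ratio was 0.310 to 0.372, and at 500 to 1500 bp from them it was 0.866 to 1.07. If 1 copy were fully methylated and the other not at all, and reads of the copies were counted in the parents' ratio r, the crosses would differ by 100 × (1 − r)/(1 + r) points. This arithmetic, which presumes parents near 50%, gives 49.5 points at Zdbf2, 45.7 at H13 and 52.6 at Trappc9, beside observed differences of 45.0, 47.9 and 46.6 points in size. It does not apply to the DMR near Snrpn, where the parents had 18.4 and 22.8%. The DMRs were chosen for a large difference, and the arithmetic was further off in some 500-bp windows described below. In the window 50.6 kb from Peg3, with parents at 54.2 and 45.4%, it gives 62.6 points beside 21.0 observed. In the Zdbf2 window 6.16 kb from the start of the gene it gives 44.2 beside 36.5 in size. The F1 depth was 15.8 to 20.9 reads per CpG in both crosses, between the depths of the strains. The part of read depth in the differences was not tested.

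The other two DMRs had a depth ratio near 1 and a strain difference. In an exon of Cdh20, a gene of the cadherin family of adhesion proteins, the values were 7.48, 12.3 and 17.2% in the lowest, median and highest B6C3F1 animal and 38.2, 49.5 and 58.3% in C3B6F1. The B6 parents, whose strain gave the dams of B6C3F1, had 10.3% and the C3 parents 42.8%, so that each cross lay at the level of its dam's strain. The depth ratio was 1.05. In an intron of BC051142, 86 bp from its start, B6C3F1 animals had 0 to 5.83% (median 2.00%) and C3B6F1 animals 20.0 to 54.9% (median 27.2%). B6 had 3.19% and C3 15.1%, and the depth ratio was 1.16. C3B6F1 thus lay above both strains on average, and its lowest animal lay below the highest C3 parent, at 23.9%.

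**Figure D2:**
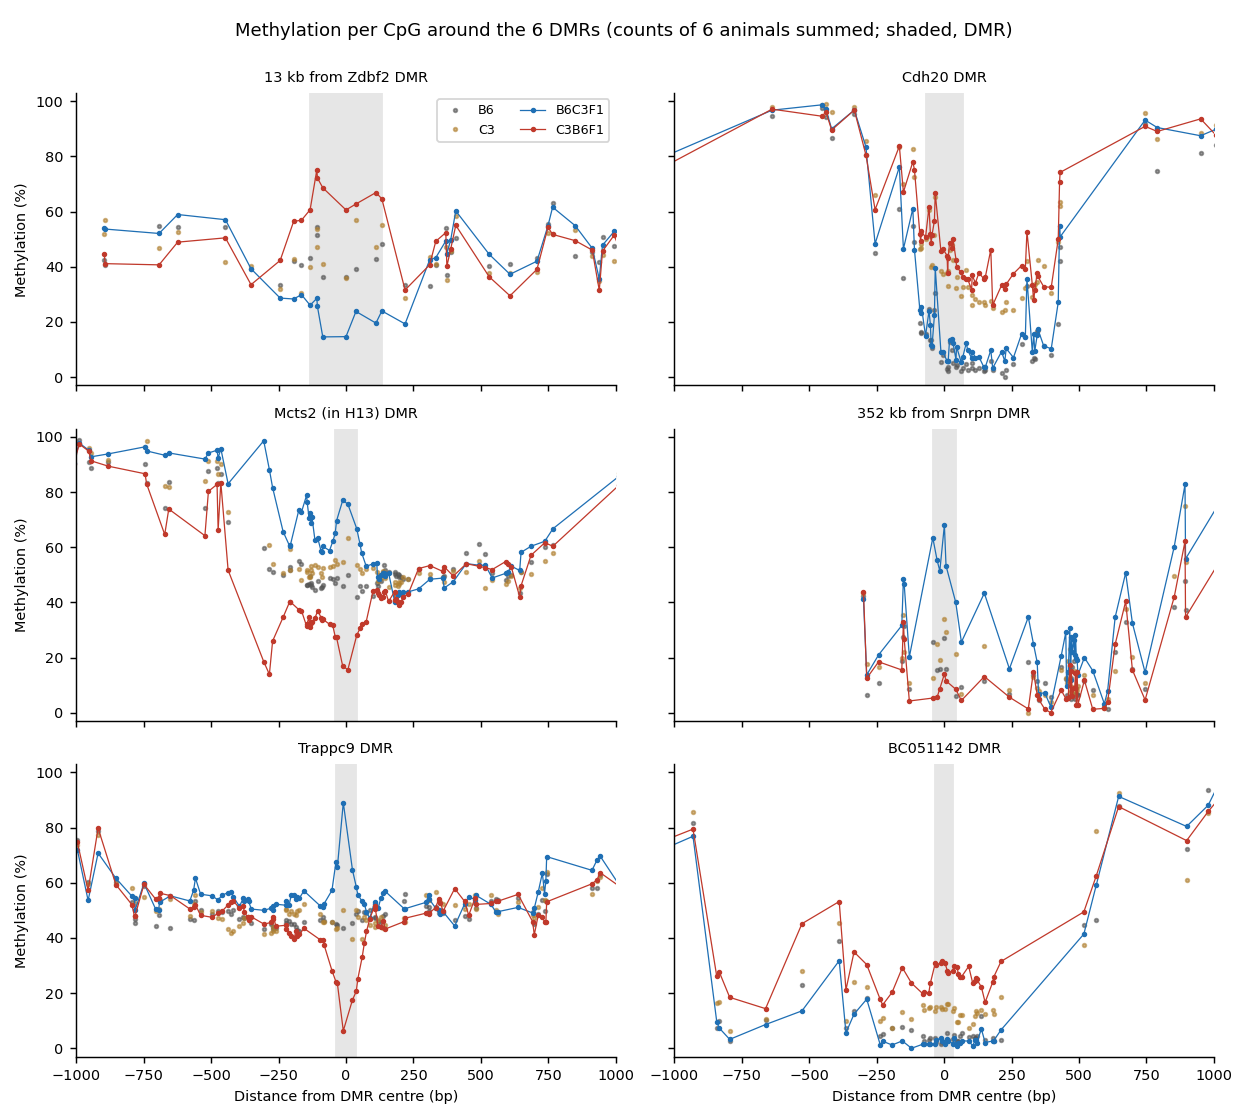
Methylation (%, counts of 6 animals summed) per CpG against distance from the centre of each DMR (bp), for both crosses (lines) and both strains (points), with the DMR shaded. The crosses part close to the Zdbf2, H13 and Trappc9 DMRs, with the strains between them, while at Cdh20 and BC051142 the B6C3F1 line follows the B6 points.

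Fixed windows of 500 bp gave a second view, because they do not depend on where DMCs happen to lie. The autosomes held 4254058 windows with any CpG. At least 5 CpGs lay in 1496157, and 1474246 of these had at least 30 counts in each F1 animal and were tested with limma on log2((M + 1)/(U + 1)), where M and U are methylated and unmethylated counts. Called windows had p below 0.05 after Benjamini-Hochberg adjustment and crosses at least 10 points apart, and there were 23 (0.00156%), 9 higher in B6C3F1 (0.00061%) and 14 higher in C3B6F1 (0.00095%). They fell into 19 separate regions. None of them covered the Trappc9 DMR, and each of the other five DMRs lay at a called window. The crosses did not overlap in 20 of the 23 windows, against 0.32% of all windows tested. The windows were chosen on the same 12 animals, so this count, and the equal sign in sons and daughters that follows from it, only describe them. Without C3B6F1 son 1, 20 windows were called. Of these, 17 were among the 23, and 6 of the 23 were lost. The unadjusted p was below 0.05 in 6.53% of windows. Sons and daughters of a cross came from the same 3 families, and the labels do not say which son and daughter share parents, so the animals may not be fully independent.

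Of the 23 called windows, 9 lay within 500 kb of a gene of the imprinted list. These surroundings held 1.34% of the windows tested. This is 9 of 19737 windows (0.0456%), against 14 of 1454509 elsewhere (0.000963%). The 9 lay at Zdbf2 and Mcts2 and near Peg3 and Snrpn, several of them at the same gene, so they are not separate places. The distance of 500 kb was not set in the planned tests, and these shares were not tested. Of the 9, 6 were higher in B6C3F1 and 3 in C3B6F1, and those 3 were all at Zdbf2. The depth ratio of C3 to B6 was 0.230 to 0.815 (median 0.547) in the 9, so that all lay below 0.9, as did 15.9% of all windows tested. In the other 14 it was 0.458 to 1.19 (median 0.975), with 2 below 0.9, and 3 were higher in B6C3F1 and 11 in C3B6F1.

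At Zdbf2 the window over the upstream DMR (chr1:63306001-63306500) had 26.5% ± 2.47 (SD, n = 6) in B6C3F1 and 59.2% ± 8.88 in C3B6F1, with a log2 ratio of -2.01 ± 0.180 (SE) and a limma adjusted p of 2.91e-05. An intronic window 6.16 kb from the start of the gene (chr1:63326001-63326500), had 20.9 to 43.2% in B6C3F1 and 64.5 to 69.6% in C3B6F1. Its difference of -36.5 points was the largest in size of the 23 (limma adjusted p = 1.02e-05), with both strains at 52.1 to 52.4% and a depth ratio of 0.387. The window between them (chr1:63322001-63322500) differed by -17.9 points, at a depth ratio of 0.815 (limma adjusted p = 0.0234). It held 5 SNVs and was no longer called when any of 10 animals was left out.

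At Mcts2 there were 2 adjoining called windows. The first, in an exon of H13 (chr2:152512001-152512500), had 87.6 to 93.7% in B6C3F1 and 58.0 to 69.6% in C3B6F1, with the smallest adjusted p of the 23 (28.8 points, limma adjusted p = 5.90e-07, depth ratio 0.346). The second, over Mcts2 itself (chr2:152512501-152513000), had 53.3 to 63.8% and 30.6 to 41.4% (21.5 points, limma adjusted p = 0.00657, depth ratio 0.581). Its parents had 48.8% in B6 and 50.2% in C3, close to the level of a region methylated on a single copy.

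On chromosome 7, 4 called windows lay near Peg3 or Snrpn, and all 4 were higher in B6C3F1. The window at chr7:6605501-6606000, 35.5 kb from Zim1 and 50.6 kb from Peg3, both imprinted genes of zinc finger proteins, had 52.5 to 62.4% in B6C3F1 and 32.6 to 39.7% in C3B6F1, with 54.2% in B6 and 45.4% in C3. The difference was 21.0 points (limma adjusted p = 0.00439), at the lowest depth ratio of the 23 windows, 0.230. The window at chr7:67637001-67637500, over the DMR 352 kb from Snrpn, had 26.9 to 33.3% against 3.88 to 14.0% (22.9 points, limma adjusted p = 0.000122). The 2 windows nearer to Snrpn, 104 and 251 kb away from it, differed by 13.7 and 12.2 points, at depth ratios of 0.807 and 0.547. In the nearer of these the crosses overlapped. It was called in 8 of the 12 tests with an animal left out and lost with all 24 animals in the fit (limma adjusted p = 0.125) and with thinned reads (0.056). The window 251 kb away was called in 1 of the 12 tests with an animal left out. It was also lost with the replicate number as a block (limma adjusted p = 0.0671) and with same-numbered siblings averaged (0.0511).

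**Figure D3:**
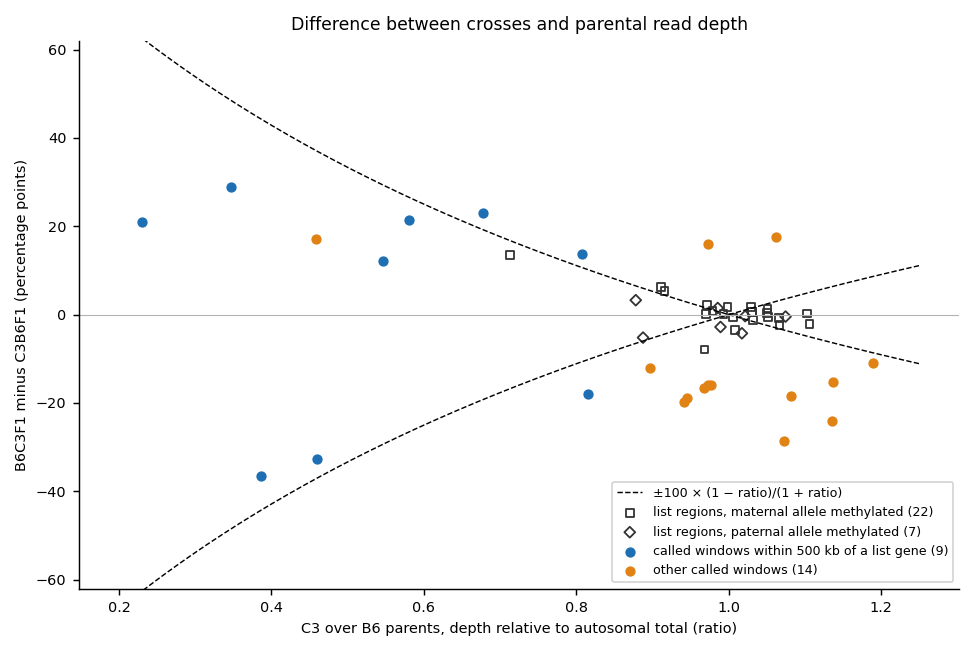
Difference between the crosses (B6C3F1 minus C3B6F1, percentage points) against the depth of C3 over B6 parents (ratio, relative to autosomal totals), for the 23 called windows and the 29 regions of the imprinted list. The dashed lines are the arithmetic for 1 methylated copy, the called windows near list genes lie at ratios of 0.230 to 0.815, and 10 windows higher in C3B6F1 lie at 0.9 or more.

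The other 14 called windows were mostly at genes without a place on the imprinted list. In 8 of the 23 windows the strains differed by at least 8 points and the depth ratio was at least 0.9, and 7 of these 8 were higher in C3B6F1. In 4 of the 8 each cross was nearer to the strain of its dam than the other cross was, and in 2 it was nearer to the strain of its sire. The other two, at Nkpd1 and the start of BC051142, met neither description. The mean of C3B6F1 lay above that of both strains in 6 of the 8, at Cdh20, Bcan, Nkpd1, BC051142 (2 windows) and Cmah.

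The Cdh20 exon window (chr1:106890501-106891000, 46 CpGs) had 8.35 to 15.3% in B6C3F1 and 28.6 to 47.4% in C3B6F1 (-28.6 points, limma adjusted p = 9.30e-06). B6 had 9.47% and C3 37.9%. On a scale where B6 is 0 and C3 is 100%, B6C3F1 stood at 11.1% and C3B6F1 at 112%. Samd12, which encodes a protein with a sterile alpha motif, had 2 adjoining called windows over its start (chr15:53733501-53734500). The first had 1.12 to 3.80% in B6C3F1 and 9.54 to 27.6% in C3B6F1 (limma adjusted p = 7.57e-05), with 1.52% in B6 and 39.8% in C3. Its positions on the same scale were 2.63 and 44.4%, so that B6C3F1 lay at the B6 level and C3B6F1 near the middle. The second, with 22 CpGs, differed by -12.1 points.

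Around the start of BC051142 there were 3 adjoining called windows (chr17:34535001-34536500). In the middle window, with 27 CpGs, B6C3F1 animals had 2.84 to 6.20% and C3B6F1 animals 18.5 to 40.8% (-24.0 points, limma adjusted p = 2.80e-06), while B6 had 5.95% and C3 14.2%. The flanking windows differed by -15.3 and -18.9 points. In the first of them the crosses overlapped, and it was lost with all 24 animals in the fit (limma adjusted p = 0.0857). The other was called in 3 of the 12 tests with an animal left out and was lost with all 24 animals (limma adjusted p = 0.403) and with thinned reads (0.375). In Bcan, the gene of the matrix proteoglycan brevican, an exonic window (chr3:87792001-87792500) had 8.18 to 14.1% in B6C3F1 and 20.6 to 38.0% in C3B6F1 (-16.6 points, limma adjusted p = 0.0141), with 10.9% in B6 and 22.6% in C3, and was called in 8 of the 12 tests with an animal left out. In an exon of Nkpd1 (chr7:20108501-20109000) the ranges were 6.98 to 22.5% and 26.8 to 41.4% (-19.9 points, limma adjusted p = 0.00934), with 13.1% in B6 and 21.9% in C3, and the window was called in 10 of these tests. All of these windows had low methylation in B6 and in B6C3F1.

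An intron of Brd3, which encodes a bromodomain protein that reads acetylated histones, held a window (chr2:27351501-27352000) with the same mean in both strains, 64.9 and 65.0%. B6C3F1 animals had 51.9 to 62.9% and C3B6F1 animals 72.5 to 83.9%, so that the crosses lay on either side of the strains (-18.5 points, limma adjusted p = 0.00934), at a depth ratio of 1.08. The single parents spread widely, from 51.6 to 75.9% in B6. The call was lost with all 24 animals in the fit (limma adjusted p = 0.0724), without B6C3F1 daughter 2 (0.0512) and without B6C3F1 daughter 3 (0.0580).

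Also 3 called windows outside the surroundings of list genes were higher in B6C3F1. An exon of 2010001K21Rik, 3.72 kb from Nhlrc1 (chr13:47106001-47106500), had 88.5 to 94.5% in B6C3F1 and 70.4 to 79.9% in C3B6F1 (17.0 points, limma adjusted p = 0.000394). Its depth ratio was 0.458, the lowest among the 14. A window 13.7 kb from Epha2, a receptor for ephrins (chr4:140843001-140843500), had 39.7 to 51.4% and 23.5 to 30.5% (17.5 points, limma adjusted p = 0.0291), at a depth ratio of 1.06. A window in 2410004I01Rik (chr11:102825001-102825500) had 23.7 to 28.1% and 5.32 to 16.9% (16.1 points, limma adjusted p = 0.0222), with 4.06% in B6 and 32.6% in C3. There each cross was nearer to the strain of its sire.

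Of the last 2 of the 14 windows, the first lay 789 bp from Cmah, an enzyme of sialic acid synthesis, and differed by -16.0 points with overlapping animals. The second lay 12.3 kb from the proton channel gene Hvcn1 and differed by -10.9 points, with 72.0 to 87.4% in B6C3F1 and 90.6 to 94.2% in C3B6F1. Its depth was 6.93 reads per CpG in B6C3F1 and 7.16 in C3B6F1. The windows near Epha2 and Hvcn1 and in 2410004I01Rik were called in 2 of the 12 tests with an animal left out, and the window near Cmah in 3.

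Of the 23 called windows, 11 were exonic (47.8%, against 15.4% of all windows tested), 4 intronic (17.4 against 38.8%) and 8 intergenic (34.8 against 45.8%). They had a median of 18 CpGs and 52% GC, against 7 CpGs and 46% GC in all windows tested. The letters TGCCGC, on either strand, occurred in 7 of the 23 (30.4%), in 103199 of all 1474246 windows (7%) and in 45 of the 179 windows in regions of the imprinted list (25.1%). No SNV lay within 250 bp of 12 of the 23 (52.2%), against 69.8% of all windows tested. These shares were not tested.

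All windows were also grouped by the depth ratio. Where the depth ratio was below 0.5, the unadjusted limma p was below 0.05 in 9.87% of 42910 windows, and 5 were called. Where it was 0.9 to 1.1 this was 6.23% of 880678 windows, with 9 called. Among windows of intermediate methylation in both strains, 30 to 70%, the shares were 10.8% of 2985 windows, with 3 called (0.101%), and 6.99% of 92162, with 2 called (0.00217%).

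The imprinted list held 33 genes known for imprinted methylation. Kcnq1ot1 and Peg13 were not in the annotation, and the other 31 gave 29 regions, because Airn and Igf2r, and Nespas and Gnas, shared one each. A region was the run of windows at or beside the gene with 30 to 70% methylation in both strains that held most CpGs. The regions lay at or beside Gpr1, Zdbf2, Mcts2, Nnat, Nespas and Gnas, Fkbp6, Peg10, Mest, Nap1l5, Peg3, Snrpn, Ndn, Magel2, Mkrn3, Peg12, Inpp5f, H19, Igf2, Cdkn1c, Cdh15, Rasgrf1, Plagl1, Grb10, Zrsr1, Dlk1, Meg3, Slc38a4, Airn and Igf2r, and Impact. Called windows lay in 2 of the regions, those of Mcts2 and Zdbf2, with 1 each. This makes 2 of the 179 tested windows in list regions, against 0.00156% of all windows.

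In most regions the crosses had nearly equal methylation. The Nespas and Gnas region, with the most CpGs, 350, had 49.7% ± 1.32 (SD, n = 6) in B6C3F1 and 51.0% ± 1.93 in C3B6F1. Peg10 had 50.9% ± 1.67 and 50.4% ± 1.98, Peg3 had 50.7% ± 2.21 and 50.3% ± 2.15, and H19, the gene of a non-coding RNA beside Igf2, had 57.9% ± 1.94 and 58.3% ± 2.56. Mest had 49.3% ± 2.63 and 52.9% ± 2.73, and Rasgrf1 had 52.7% ± 1.33 and 55.5% ± 2.18. In these 6 regions the animals of the crosses overlapped. The whole Zdbf2 region, 197 CpGs over 10 kb, had 45.5% ± 3.69 and 45.8% ± 1.37, so that the difference at its upstream DMR was not seen in the region's mean.

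In 3 of the 29 regions the crosses did not overlap, against 0.32% of all windows. The regions are runs of up to 12000 bp and the windows 500 bp, so these shares are of unlike units. The Mcts2 region (61 CpGs) had 55.5% ± 3.92 (SD, n = 6) in B6C3F1 and 42.0% ± 4.00 in C3B6F1, at a depth ratio of 0.713. The Mkrn3 region (72 CpGs), at a paternally expressed gene of the Prader-Willi cluster, had 39.0% ± 2.63 and 46.8% ± 2.78, at 0.968. The Meg3 region (96 CpGs), at a maternally expressed RNA gene beside Dlk1, had 48.3% ± 2.80 and 53.5% ± 2.32, at 0.887. These 3 are named for their lack of overlap, so no p is given. Without C3B6F1 son 1 the number of such regions was also 3. Nnat, at a difference of 6.29 points, and Snrpn, at 5.37 points, both methylated on the maternal copy, had depth ratios of 0.911 and 0.915 and overlapping animals.

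**Figure D4:**
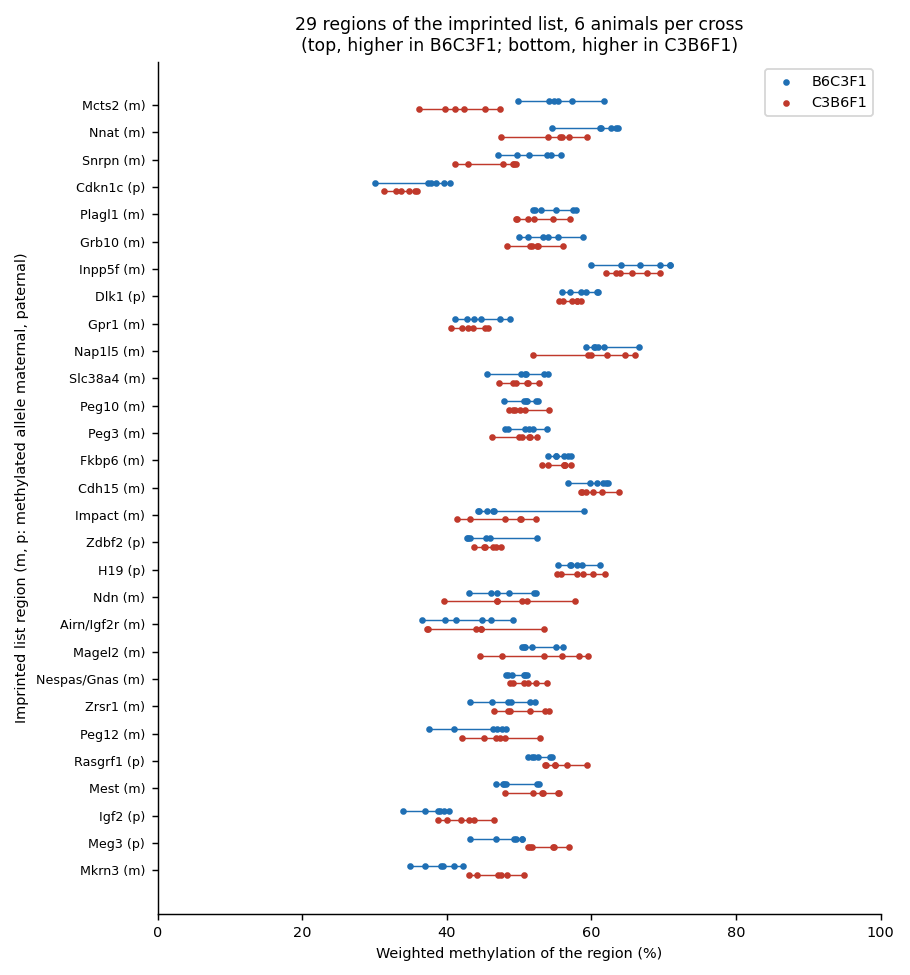
Weighted methylation (%) of each animal in the 29 regions of the imprinted list, ordered by the difference between the crosses (6 dots and their range per cross). The letters m and p give the methylated copy listed for the gene, maternal or paternal. The crosses do not overlap at Mcts2, Meg3 and Mkrn3, and overlap in the other regions.

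The arithmetic above was given a sign from the methylated copy listed for the gene. That copy was not measured in the region itself, and some regions lie outside the gene. The Fkbp6 region lies 1606 bp from Fkbp6, at an exon of Trim50. The arithmetic came to at least 4 points in 7 regions, that of Fkbp6 among them. In 5 of these the observed difference had the same sign, with sizes of 0.229 to 13.5 points over the 7. At Mcts2 it gave 16.8 points beside 13.5 observed, and at Meg3 -5.96 beside -5.20. At Mkrn3, the third region without overlap, it gave 1.62 beside -7.86 observed, the opposite sign. At Cdkn1c, an inhibitor of the cell cycle, it gave -6.50 beside 3.27 observed, again the opposite sign. In the 22 regions where it came to less than 4 points, the sign was the same in 12. Pearson's r between the arithmetic and the observed difference was 0.902 over the 7 regions, -0.144 over the 22 and 0.631 over all 29. Mcts2 had the largest size of both, and the next largest were 6.50 for the arithmetic and 7.86 for the difference. The r over the 7 and over all 29 thus leans on this 1 region, and r without it was not computed. The regions share libraries and parental depths, and this is a description.

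Sons and daughters were also compared apart, 3 animals of each cross at a time. In sons 5 windows were called (0.000339%), with an unadjusted p below 0.05 in 6.08%, and in daughters 6 (0.000407%), with 5.23%. All 5 of the sons were among the 23 called over both sexes, and all had the same sign in daughters. The largest difference in sons was at the Zdbf2 window 6.16 kb into the gene, at -34.5 points (limma adjusted p = 0.0143), where daughters had -38.5 points (limma adjusted p = 0.00359). The H13 window differed by 30.7 points in sons and 26.9 in daughters, and the Cdh20 window by -27.0 and -30.2. The Zdbf2 upstream window was called in daughters, at -37.9 points (limma adjusted p = 0.00345), and not in sons, at -27.6 (limma adjusted p = 0.121). The per-CpG test gave 54 DMCs in sons (0.000292%) and 69 in daughters (0.000372%), again fewer than its limit would pass if no CpG differed. They formed 2 DMRs in sons, at Cdh20 and 352 kb from Snrpn, and 1 in daughters, upstream of Zdbf2. With 1 son left out at a time, each of the 2 was called in 2 of 6 tests, and the DMR of daughters was called in 6 of 6. Without C3B6F1 son 1, 4 windows were called in sons, with 64 DMCs and 0 DMRs, and the cross by sex term called 0 windows with or without this animal.

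The cross by sex term of limma, which tests whether the difference between the crosses itself differs between sons and daughters, called 0 of 1474246 windows. Its unadjusted p was below 0.05 in 4.77% of windows.

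One window called in daughters was not called over both sexes. It is intergenic, 23.4 kb from the start of the homeobox gene Nkx1-1 (chr5:33800001-33800500, 10 CpGs), and was named after its values were seen. B6C3F1 daughters had 15.8, 16.8 and 18.6% and C3B6F1 daughters 34.7, 41.9 and 47.2% (-24.2 points, limma adjusted p = 0.0285). B6C3F1 sons had 75, 78.5 and 83.8% and C3B6F1 sons 67.9, 68.2 and 73.9% (9.14 points, limma adjusted p = 0.740). The window also separated the sexes in the parents, with 74.0 to 81.6% in sires and 13.2 to 21.1% in dams. C3B6F1 daughters therefore lay above all dams and below all sires, whereas B6C3F1 daughters lay within the range of the dams. The dams had borne litters, unlike the daughters, so sex and pregnancy cannot be told apart in the parents. The sons' difference exceeded the daughters' by 33.3 points, with a cross by sex adjusted p of 0.196 in limma. This was the smallest p of that term over all windows tested (unadjusted p = 1.33e-07).

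**Figure D5:**
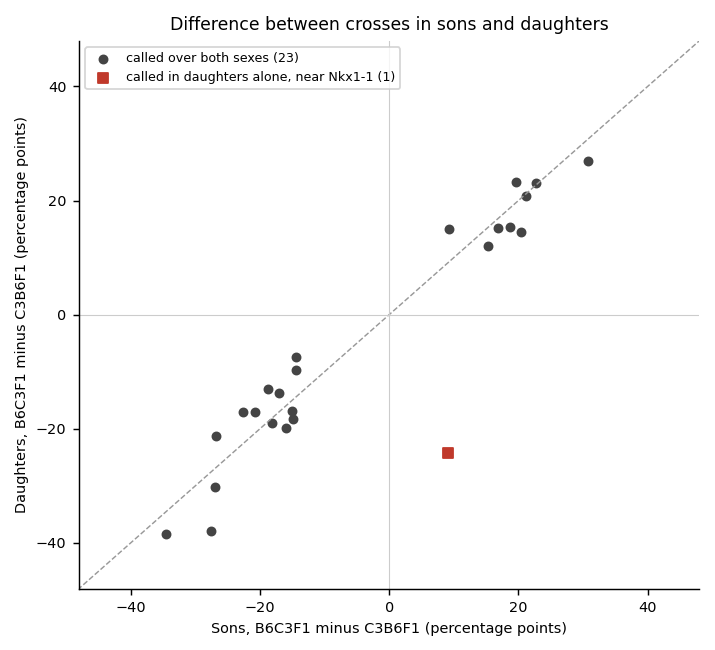
Difference between the crosses (B6C3F1 minus C3B6F1, percentage points) in daughters against sons, for the 23 windows called over both sexes (circles) and the window near Nkx1-1 called in daughters (square). The 23 windows lie in the quadrants of equal sign, and the square has 9.14 points in sons and -24.2 in daughters.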

How the data were processed

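The methylation of liver DNA was profiled in 24 mice by bisulfite sequencing of the whole genome. The 12 F1 animals were compared, and the 12 parents were read beside them. The authors deposited raw counts of methylated and of unmethylated reads per CpG and animal, with both strands together. They filtered reads for base quality, aligned them to mm9 and the phage lambda genome, removed duplicates, clipped read ends, trimmed overlapping mates and kept CpGs present in mm9 and both strains. The submitters' processing notes name CASAVA 1.8.2, Bismark 0.7.8, Bowtie 0.12.8 and Picard 1.110. Reads of both strains were thus mapped to a B6-derived reference, which can lower C3 depth. The authors also deposited a list of SNVs with the mm9, B6 and C3 bases. All 48 count columns were used, and no FOXA1 ChIP sample was used.

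All 18887127 autosomal CpGs lie at CG in the mm9 sequence used, and genes came from GENCODE M1 on the same build. Windows of 500 bp with at least 5 CpGs and 30 counts in each F1 animal were fitted in R 4.3.3 with limma 3.58.1 (4 means of cross and sex, robust and trended empirical Bayes) on log2((M + 1)/(U + 1)), and percentages are unweighted means over animals. CpGs that reached 5 reads in 50% or more of each cross were tested with a beta-binomial Wald test without smoothing, after the model of DSS, in Python 3.11.15. Runs with gaps of at most 1000 bp were DMRs under the rule in the text, merged within 100 bp, and regions above 500 reads of depth or a depth ratio above 5 between crosses were left out. Both scripts were tested on simulated data. Depth ratios divide each strain's counts by its autosomal total. Depth limits precision, and counts cover counting error only.

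The members, the gene lists and the tests were chosen with earlier results of these data known. Named were list regions with a called window, the 6 others with most CpGs, the 5 regions of largest difference per direction without overlap elsewhere, all DMRs, and the 3 largest differences per sex. The other called windows, Mkrn3, Meg3, Nnat, Snrpn, Cdkn1c and the window near Nkx1-1 were named after their values were seen. The alternatives were other limits on reads, points, DMCs and CpGs, a pseudocount of 5, an arcsine scale, all 24 animals, the replicate number as a block, same-numbered animals averaged, thinned reads, shifted windows, smoothing and leaving out each animal.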

Additional observations from a re-analysis of the deposited data

Results flagged for a closer look

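In 9 of 116 groups of 6 animals, 1 animal lay apart from the other five by Dixon's criterion at the 95% level, which chance alone gives in about 1 in 20 groups. In the H13 DMR beside Mcts2, C3B6F1 daughter 3 had 14.1%, with the others at 23.0 to 28.3%. Among the list regions, B6C3F1 daughter 3 was low at Cdkn1c, at 30.0% against 37.4 to 40.5%, and at Nnat, at 54.6% against 61.2 to 63.7%. B6C3F1 son 3 was high at Impact, at 59.0% against 44.4 to 46.5%, and B6C3F1 daughter 1 at Nap1l5, at 66.5% against 59.3 to 61.7%. In the Zdbf2 region B6C3F1 son 1 had 52.5%, against 42.8 to 45.9%.

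Among the called windows, B6C3F1 son 1 had 15.3% at chr17:34535001-34535500 beside BC051142, against 4.69 to 8.20%. C3B6F1 daughter 3 had 4.79% in the window 251 kb from Snrpn, against 9.81 to 11.6%. C3B6F1 daughter 1 had 14.0% in the window 352 kb from Snrpn, against 3.88 to 7.45%.

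Near Nkx1-1 the differences between the crosses had opposite signs in sons and daughters and the difference of the 2 differences was 33.3 points. Every son of B6C3F1 lay above every son of C3B6F1, and every daughter below every daughter. The cross by sex term of limma had an adjusted p of 0.196, so the difference did not pass that test. It was the 1 window called by this term at 100 reads (adjusted p = 0.0156), with a pseudocount of 5 (0.0129) and with all 24 animals (0.00818), while the adjusted p was 0.734 on the arcsine scale and 0.675 with the replicate block. The term's unadjusted p was below 0.05 in 4.77% of windows tested.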

How the results depend on the processing

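Among the 23 called windows, the direction changed in 0 of 299 pairs of window and alternative that thinned reads or left out an animal. No other alternative can change it. In 20 of the 23 the crosses did not overlap, so leaving out 1 animal could not change the direction there. The count of 0 is therefore only a description. Over all 499 pairs the call was kept in 384 and lost in 115, and 11 windows stayed called under every alternative that tested them, apart from the limits in points. Of these 11, the Zdbf2 window at chr1:63326001-63326500 and the window near Peg3 had too few counts to be tested at 100 reads. Over both sexes, 8 windows differed by at least 20 points and a pseudocount of 5 gave 51. Leaving out 1 animal gave 14 to 25, with 14 without B6C3F1 son 3 and 15 without B6C3F1 daughter 3. In sons the 5 windows became 14 at 100 reads, 14 with a pseudocount of 5, 8 with all 24 animals and 11 in shifted windows, and 3 to 7 without 1 animal (3 without C3B6F1 son 3). In daughters the 6 became 11 with a pseudocount of 5 and 2 to 8 without 1 animal (2 without B6C3F1 daughter 2 or C3B6F1 daughter 2, 3 without B6C3F1 daughter 3). The cross by sex term called 1 window at 100 reads, with a pseudocount of 5 and with all 24 animals. The DMRs were 3 to 8 without 1 animal (3 without B6C3F1 daughter 3), and in alternatives chosen after seeing the data 0 to 1 in sons (0 without B6C3F1 son 1 or C3B6F1 son 1) and 1 to 3 in daughters (3 without C3B6F1 daughter 1, 2 without B6C3F1 daughter 3 or C3B6F1 daughter 3). DMCs were 109 to 137, 64 to 84 in sons (84 without B6C3F1 son 1) and 73 to 113 in daughters (113 without C3B6F1 daughter 1). A DMC share of 50% gave 4 DMRs in sons and 2 in daughters, and a DMC threshold of 1e-04 gave 2 in daughters. List regions without overlap were 8 when same-numbered sons and daughters were averaged and 3 to 5 without 1 animal (5 without B6C3F1 daughter 3). Averaging leaves 3 values per cross, which chance separates with a probability of 0.1, against 0.002165 for 6 per cross. The 8 are thus not comparable with the 3 reported, and the share over all windows was not counted. Of the 8, 6 lay in the direction of the methylated copy listed for the gene, as did 2 of the 3. The cause of these changes was not tested, apart from the fewer animals or the stricter limits themselves.

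With the replicate number as a block, 30 windows were called over both sexes, 5 in sons and 5 in daughters, and the cross by sex term called 0. Over 307023 windows the deviations of same-numbered animals correlated at -0.0108 to 0.0796 in 18 pairs. Of these, 17 were positive, among them all 6 pairs of a son and a daughter of the same cross (0.0127 to 0.0796). Animals of different numbers correlated at -0.0455 to 0.0193. In 29 of 36 comparisons an animal correlated best with its own number, out of 3 candidates each. Each pair of animals entered these comparisons from both sides, so the 36 are not independent. Deviations were taken from the mean of cross and sex, which by itself pushes some r below 0. The highest r, 0.0796, was that of C3B6F1 son 1, the animal with reads of a B6 X chromosome, and C3B6F1 daughter 1. Same-numbered animals thus shared a weak structure, and its source was not tested. All r lay below the limit of 0.1, so the numbers were not treated as pairs in the main test. That limit does not show that the animals are independent.

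Depth limits windows with few C3 reads in the parents, and 7 reads per CpG near Hvcn1.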

Other observations

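The window near Nkx1-1 led to a look at the other windows that separated sires from dams. In 162 windows methylation was at least 30 points lower in sires than in dams in both strains. Their mean was 36.1% ± 1.15 (SD, n = 3) in B6C3F1 sons and 40.3% ± 5.45 in C3B6F1 sons (two-sided exact permutation test, p = 0.3, with 0.1 the smallest that 3 against 3 allow). Daughters had 72.1% ± 1.19 and 72.9% ± 2.68. In 70 windows methylation was at least 30 points higher in sires. Sons had 73.5% ± 0.925 and 72.3% ± 2.02 there, and daughters 59.3% ± 0.825 in B6C3F1 and 61.3% ± 1.64 in C3B6F1 (two-sided exact permutation test, p = 0.2, n = 3). Over the 162 windows the C3B6F1 sons had 46.1, 39.7 and 35.2%. The highest value was that of C3B6F1 son 1, the animal whose depth on chromosome X was 0.600 of that on autosomes. In the 70 windows this son had 70.1%, the lowest of the 6 sons. Over 307023 autosomal windows its deviations from its group correlated most, among the F1 animals of the other groups, with those of C3B6F1 daughter 1, at 0.0796. The groups of windows were chosen after the data were seen.

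Of the 135 DMCs, 79 lay in called windows and 30 in regions of the imprinted list, and 40 lay in none of the DMRs, called windows or list regions.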
